A study of Homo sapiens with 6 samples.

Results

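Genes that mark contractile smooth muscle cells and pericytes were followed in a human renal carcinoma line in which DNAJC2, a co-chaperone of the ribosome, had been lowered. The members were the rows of the count table named ACTA2, TAGLN, CNN1, MYL9, TPM1, TPM2, CALD1, CSPG4, PDGFRA and PDGFRB, which made 10 of 20532 genes, and all 10 passed the filter on low counts that left 13988 genes for testing. The cells were ACHN, assigned by the labels to clear cell renal cell carcinoma. One group of 3 libraries carried a lentiviral negative control hairpin (shCtrl 1, 2 and 3), and the other group of 3 carried a lentiviral hairpin that silences DNAJC2 (shDNAJC2 1, 2 and 3). Both groups had therefore been transduced with a lentivirus, and each was described as a stable line. The design text calls the libraries biological replicates, but does not say whether each had its own transduction or whether a line is 1 clone. The p-values below therefore measure the spread among libraries of 1 line per group, which may be technical. The series asked how DNAJC2 silencing alters metabolism and ferroptosis in these cells, and the genes described here were not named in that aim.

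Smooth muscle contracts when myosin pulls on actin filaments. The alpha actin encoded by ACTA2 is the typical smooth muscle actin, and the products of TPM1, TPM2, CALD1, CNN1 and TAGLN lie along or bind these filaments, while MYL9 encodes a regulatory light chain of myosin that is phosphorylated to start contraction. Many of these genes are read through CArG boxes, short DNA elements bound by serum response factor (SRF) together with myocardin or the myocardin-related factors MRTFA and MRTFB, which enter the nucleus when monomeric actin is depleted. Pericytes, the mural cells of small vessels, are recognized by the receptor tyrosine kinase PDGFRB and the proteoglycan NG2, the product of CSPG4, whereas the related receptor PDGFRA is more typical of fibroblasts and other mesenchymal cells. Tropomyosins and caldesmon are also made in nonmuscle cells from other transcripts of the same genes, and counts per gene do not separate those transcripts.

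Stretches before 1 annotated start of each of 5 genes are printed below. In 3 of them lies the element on which this group of genes is usually thought to depend, while ACTA2 holds a near form of it and CNN1 neither. RefSeq promoters on GRCh38.p14 were matched for 8 of the 10 members, with 14 annotated starts. No promoter was available for TAGLN and MYL9, so the search does not cover those genes. They were searched from 250 bases before to 50 bases after the start for the CArG box (CC and GG around 6 letters of A or T, the same pattern on both strands), and for a CArG-like form with 1 G or C among these 6 letters. None of the 14 held a full CArG box, and 2 of them (14.3%), 1 start each of ACTA2 and CALD1, held a CArG-like form. Of all 35116 promoters 1.29% held a CArG box and 8.13% held either form. The stretches below were chosen after the values had been seen: ACTA2, the member with a pair of CArG-like matches, CNN1, a member with none, and 3 genes of the contractile list with full boxes, ACTG2 (gamma smooth muscle actin), MYLK (myosin light chain kinase) and SMTN (smoothelin, an actin-binding protein). Each is printed 5′ to 3′ on the strand of the gene and ends at the base before the start, with CArG and CArG-like matches in capitals. Where a match was found, the start shown is the one that holds it. The starts of MYLK and SMTN lie far inside their genes (chromosome 3, 123610049 to 123884331, and chromosome 22, 31064105 to 31104757). That of ACTA2 also lies inside its gene. Which transcripts begin at these starts was not examined.
ACTA2 (chr10:88952774-88953023, minus strand): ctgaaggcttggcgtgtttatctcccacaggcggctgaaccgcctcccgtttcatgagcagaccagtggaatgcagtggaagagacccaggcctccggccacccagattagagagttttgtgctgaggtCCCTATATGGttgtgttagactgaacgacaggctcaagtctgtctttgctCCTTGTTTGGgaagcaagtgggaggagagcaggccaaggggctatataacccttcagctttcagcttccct
CNN1 (chr19:11538601-11538850, plus strand): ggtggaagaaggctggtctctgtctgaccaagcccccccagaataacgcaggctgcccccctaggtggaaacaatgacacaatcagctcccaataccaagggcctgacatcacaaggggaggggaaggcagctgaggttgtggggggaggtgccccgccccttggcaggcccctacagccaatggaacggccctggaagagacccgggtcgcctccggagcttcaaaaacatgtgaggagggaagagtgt
ACTG2 (chr2:73892758-73893007, plus strand): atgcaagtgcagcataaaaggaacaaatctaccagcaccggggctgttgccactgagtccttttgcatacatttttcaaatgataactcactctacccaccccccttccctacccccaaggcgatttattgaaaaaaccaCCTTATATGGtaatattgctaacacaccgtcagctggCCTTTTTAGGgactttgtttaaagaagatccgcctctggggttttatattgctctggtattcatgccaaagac
MYLK (chr3:123620549-123620798, minus strand): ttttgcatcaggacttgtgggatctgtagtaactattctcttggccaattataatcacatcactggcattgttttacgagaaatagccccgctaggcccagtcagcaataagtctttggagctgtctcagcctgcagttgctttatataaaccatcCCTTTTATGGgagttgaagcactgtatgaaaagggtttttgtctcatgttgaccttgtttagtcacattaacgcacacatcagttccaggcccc
SMTN (chr22:31084746-31084995, plus strand): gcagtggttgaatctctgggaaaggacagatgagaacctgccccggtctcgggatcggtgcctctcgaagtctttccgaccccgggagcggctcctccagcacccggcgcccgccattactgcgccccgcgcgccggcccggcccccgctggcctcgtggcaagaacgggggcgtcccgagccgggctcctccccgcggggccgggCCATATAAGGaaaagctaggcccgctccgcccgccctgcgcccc
In the ACTA2 stretch the capitals begin 121 and 71 bases before the start, and each match has a single G or C inside the A and T run. ACTG2 holds 2 full boxes, beginning 110 and 73 bases before its start. Those of MYLK and SMTN begin 94 and 44 bases before. Among 32 promoters of the other contractile genes 6 (18.8%) held a full box, and among 47 promoters of widely expressed actomyosin genes 7 (14.9%) did. A match describes letters in this window and is not evidence of a bound site.

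Library totals ranged from 17491462 to 25760291 counts, and 3 counts, the limit for a gene at 0, came to between 0.115 and 0.179 CPM depending on the library (CPM are counts scaled to a common library size, here after TMM normalization). Such a limit covers counting error alone, as PCR copies of a molecule are counted as separate reads. DNAJC2 itself was lower in each knockdown library (51.2, 50.4 and 38.5 CPM) than in each control library (76.7, 69.8 and 86.5 CPM). One control library stood apart: on the first principal component (79.4% of variance) shCtrl 1 and 2 lay at −52.6 and −51.0, and shCtrl 3 lay at 36.1, beside shDNAJC2 1 and 2 at 34.3 and 34.6, with shDNAJC2 3 at −1.40. The members' fitted changes below are therefore given with and without shCtrl 3, a choice made once the libraries had been compared. The labelled kidney epithelial origin was checked with 17 fixed markers: PAX8, a renal lineage factor, was at 2.82 to 4.64 CPM, EPCAM at 0.840 to 1.43 CPM and KRT18 at 66.5 to 89.8 CPM over the 6 libraries. PAX2, CDH1 and LRP2 had at most 3 counts in any library, and CDH1 had none. Summed over the 17 markers the level was 332 to 352 CPM across shCtrl, against 283 to 325 CPM across shDNAJC2, and nearly all of it came from the cadherin genes CDH2 and CDH6 and the keratin genes KRT8 and KRT18. CDH6 was at 122.5, 127.3 and 17.7 CPM across shCtrl, against 26.0, 22.8 and 42.8 CPM across shDNAJC2, and KRT8 at 30.9 to 41.7 CPM. The labelled origin is therefore not settled by these markers: PAX2, CDH1 and LRP2 were absent or nearly so and PAX8 and EPCAM low, whereas CDH6, KRT8 and KRT18 were expressed. COL1A1 (at least 572 CPM), PDGFRA (at least 128 CPM) and PDGFRB (at least 76.6 CPM), which mark mesenchymal cells, were abundant in every library. Other fibroblast markers ranged widely. THY1 and FBLN1 were at 162 to 290 and 122 to 172 CPM, and DCN and LUM at 18.9 to 27.3 and 14.1 to 24.5 CPM. PDPN was at 0.879 to 1.64 CPM, and DPT had no count.

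Of the 10 members 7 were lower in every knockdown library than in every control library: ACTA2, TAGLN, CNN1, MYL9, TPM2, CSPG4 and PDGFRB. Over all genes tested 8.43% were lower in this way, and no member was higher in this way (7.33% of all genes). The same 7 members had an unadjusted p under 0.05, as did 7.33% of all genes in the lower direction. None passed edgeR's quasi-likelihood test after Benjamini-Hochberg adjustment over all genes (0% of all genes did in either direction), and the smallest adjusted p of any gene was 0.429. DESeq2 called 14 genes lower and 4 higher, none of them a member, and limma-voom called 0. The median log2 fold change was −0.54 over the 10 members and −0.02 over all genes tested. TPM1 was lower in 7 of 9 pairs of a knockdown and a control library, and CALD1 and PDGFRA showed no detectable difference. GC content ran alongside this division. All genes of at least 55% GC, of which there were 4167, had a median log2 fold change of −0.19 and 20.1% of them were lower without overlap, against 0.11 and 0.908% for the 5174 genes below 45%. Of the 7 members without overlap, 6 had a GC content of 55.3 to 63.5% and ACTA2 had 51.8%, while CALD1, PDGFRA and TPM1 were at 41.6%, 42.9% and 45.9%. The part of GC content in the members' differences was not tested. With the GC trend of each library removed, 4 members were lower without overlap, CNN1, TPM1, TPM2 and CSPG4, against 5.94% of all genes. In that fit 8 members, against 7, had an unadjusted p under 0.05 in edgeR, and the share of all genes by that p in that fit is not given. No member passed there after adjustment (adjusted p of at least 0.609 in edgeR). The log2 fold changes of those 7 members were −0.35 to −1.25, with ACTA2 at −1.25 against −1.26 and MYL9 at −0.82 against −0.99.

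**Figure D1:**
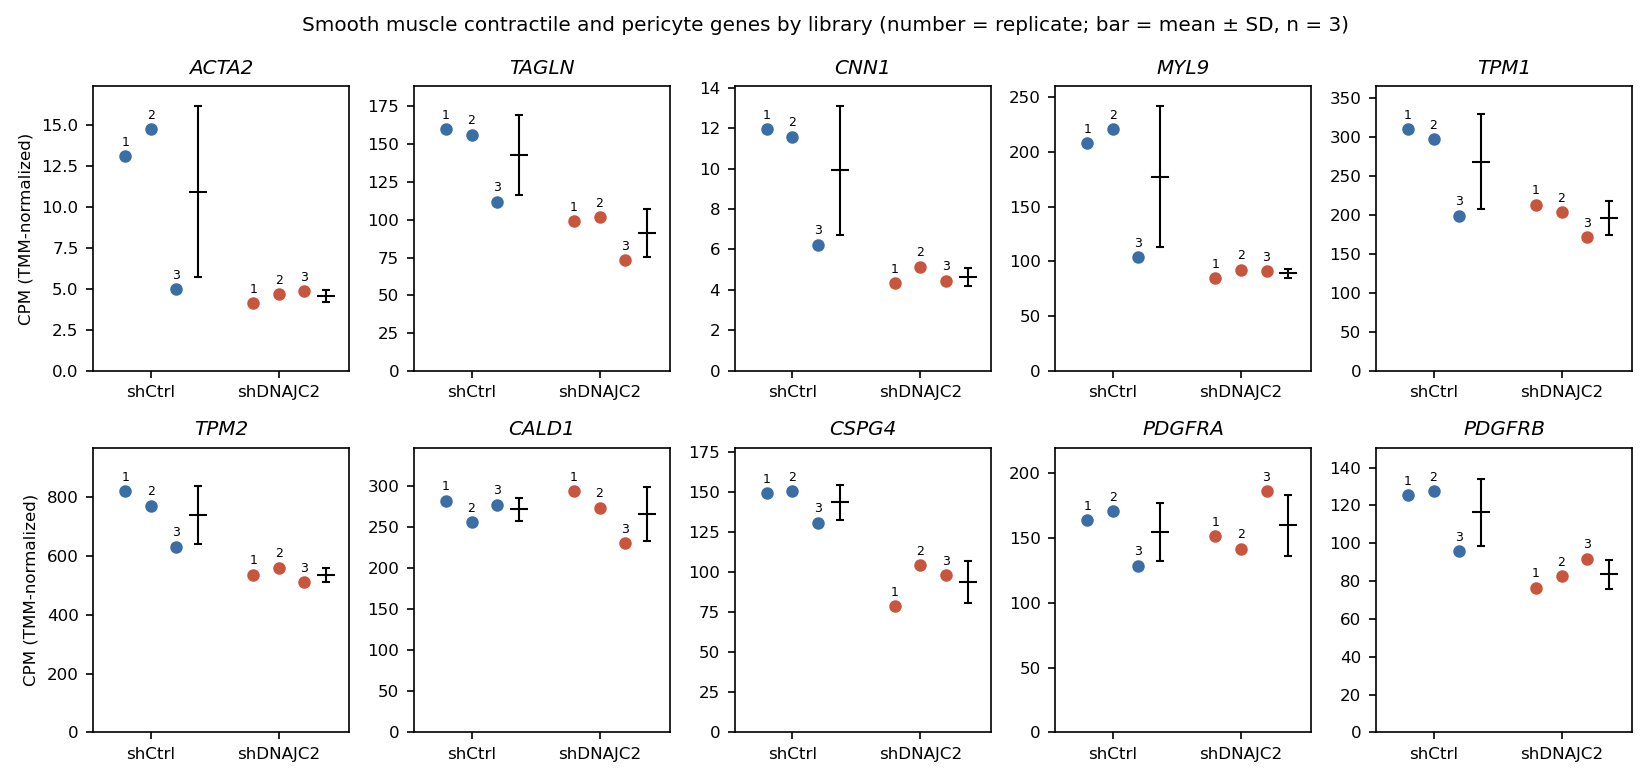
TMM-normalized CPM of each of the 10 members on a linear axis from 0, with 1 point per library (the number is the replicate), shCtrl in blue and shDNAJC2 in red, and the mean ± SD of 3 libraries as a bar. In 7 panels the lowest control lies above the highest knockdown library, by as little as 4.98 against 4.85 CPM for ACTA2, and shCtrl 3 is the lowest control in each of these panels.

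ACTA2 encodes the actin isoform that defines smooth muscle and is also induced in myofibroblasts. In the order of the replicate numbers, as for every gene below, it was at 13.1, 14.7 and 4.98 CPM across shCtrl, against 4.12, 4.67 and 4.85 CPM across shDNAJC2, from raw counts of 78 to 385 per library. The groups did not overlap, but shCtrl 3 stood 91.7% of the way from the mean of the other controls to the knockdown mean on the log2 scale. Its log2 fold change of −1.26 (standard error 0.39, 95% confidence interval −2.19 to −0.33) was the largest in size of the 10 and also the least precise. Without shCtrl 3 it fell by 1.60 (adjusted p 0.000282). The gene (ENSG00000107796, chromosome 10, 88935074 to 88991339 on GRCh38, minus strand) overlaps FAS and STAMBPL1 on the other strand in GENCODE 29, and the strand setting of the counting was not given, so reads from these genes could not be told apart from its own.

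CNN1, which encodes calponin 1, a filament-binding protein that restrains myosin, was at 11.9, 11.6 and 6.23 CPM across shCtrl, against 4.33, 5.14 and 4.46 CPM across shDNAJC2. The control and knockdown means were 9.91 ± 3.19 and 4.64 ± 0.438 CPM (SD, n = 3 each). All 3 knockdown libraries lay below shCtrl 3, which was itself nearer to them than to the other controls. The knockdown level was 46.8% of control (95% interval 29.8 to 73.6%), and without shCtrl 3 the log2 fold change was −1.34. CNN1 (ENSG00000130176, chromosome 19, 11538717 to 11550323, plus strand) ranked 76 of 13988 genes by p and had a GC content of 59.0%.

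MYL9, the myosin regulatory light chain gene of smooth muscle and many nonmuscle cells, was at 207.9, 220.4 and 103.6 CPM across shCtrl, against 84.7, 92.5 and 90.8 CPM across shDNAJC2. The 3 knockdown libraries were close together (SD 4.13 CPM) and the controls were not (SD 64.1 CPM), with shCtrl 3 at less than 50% of either other control. Its log2 fold change was −0.99 (95% interval −1.64 to −0.34), and −1.26 without shCtrl 3, where it had the smallest adjusted p of the members, 9.7e-05. MYL9 is ENSG00000101335, chromosome 20, 36541484 to 36551447, plus strand.

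TAGLN encodes transgelin, also called SM22, an early marker of smooth muscle differentiation. Its levels were 159.7, 156.2 and 112 CPM across shCtrl, against 98.9, 101.7 and 73.3 CPM across shDNAJC2, so that shDNAJC2 3 was the lowest library and shCtrl 3 lay between the other controls and the knockdown. Its log2 fold change was −0.64 (standard error 0.19). Without shCtrl 3 it was −0.79 (adjusted p 0.00381). TAGLN (ENSG00000149591, chromosome 11, 117199321 to 117204782, plus strand) overlaps PCSK7 on the other strand.

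The tropomyosin genes TPM1 and TPM2 encode the coiled-coil proteins that run along actin filaments. TPM2 was at 822, 771 and 631 CPM across shCtrl, against 537, 561 and 511 CPM across shDNAJC2, without overlap, and its knockdown level was 72.4% of control (95% interval 57.3 to 91.3%). TPM1 was at 309.6, 297 and 199 CPM across shCtrl, against 213, 203 and 172 CPM across shDNAJC2, where shCtrl 3 lay among the knockdown libraries. The log2 fold change of TPM1 was −0.45 (95% interval −0.91 to 0.003), with an unadjusted p of 0.0511 in edgeR. Without shCtrl 3 TPM1 fell by 0.63 and TPM2 by 0.57. TPM1 is ENSG00000140416, chromosome 15, 63042632 to 63071915, plus strand, and TPM2 is ENSG00000198467, chromosome 9, 35681992 to 35690121, minus strand. TPM1 is less GC-rich than TPM2 (45.9 and 55.3%), and with the GC trend removed their log2 fold changes were −0.52 and −0.38.

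CALD1, which encodes caldesmon, an actin- and calmodulin-binding protein that restrains myosin, showed no detectable difference. It was at 281, 255 and 277 CPM across shCtrl, against 293, 273 and 229.8 CPM across shDNAJC2, with the groups interleaved. Its log2 fold change was −0.03, and the 95% interval of −0.33 to 0.27 leaves out a decrease of the size fitted for ACTA2, CNN1, MYL9, TAGLN, CSPG4, PDGFRB, TPM2 or TPM1. That interval belongs to CALD1 alone, and the differences between genes were not tested. Without shCtrl 3 the value was −0.01. CALD1 is ENSG00000122786, chromosome 7, 134744252 to 134970728, plus strand.

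**Figure D2:**
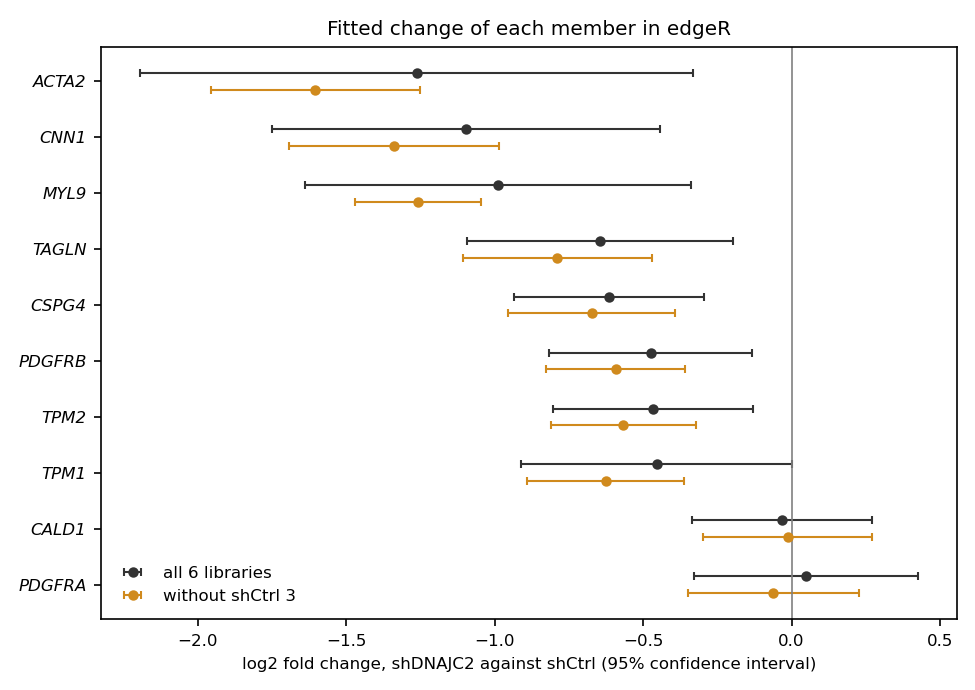
Log2 fold change of each member in the knockdown against control in edgeR, with its 95% confidence interval, over all 6 libraries (black) and without shCtrl 3 (orange). The 7 intervals from ACTA2 to TPM2 lie below 0 over all 6 libraries, that of TPM1 reaches 0.003, and those of CALD1 and PDGFRA span 0 in both fits.

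CSPG4 encodes NG2, a chondroitin sulfate proteoglycan on the surface of pericytes and of many tumour cells. It was at 149, 151 and 131 CPM across shCtrl, against 78.9, 104.4 and 98.3 CPM across shDNAJC2, and shCtrl 3 stood with the controls, at 28.3% of the way to the knockdown mean. CSPG4 (ENSG00000173546, chromosome 15, 75674322 to 75712848, minus strand) ranked 24 of 13988 genes by p, the highest of the members, with an unadjusted p of 0.0028. Its log2 fold change was −0.61 (95% interval −0.93 to −0.29) over all 6 libraries and −0.67 without shCtrl 3. It also had the highest GC content of the members, 63.5%, and with the GC trend removed its log2 fold change was −0.40.

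The 2 PDGF receptors, which bind platelet-derived growth factors and drive the growth and migration of mesenchymal cells, were measured side by side. PDGFRB was at 125, 128 and 95.9 CPM across shCtrl, against 76.6, 82.6 and 91.9 CPM across shDNAJC2. The groups did not overlap, although shCtrl 3 and shDNAJC2 3 were only 0.06 apart on the log2 scale. PDGFRB had a log2 fold change of −0.47 (95% interval −0.81 to −0.13) and was lower by 0.59 without shCtrl 3. PDGFRA was at 164, 171 and 128 CPM across shCtrl, against 151, 141 and 186 CPM across shDNAJC2, with the lowest library a control and the highest shDNAJC2 3. Its log2 fold change was 0.05 (95% interval −0.33 to 0.43), and its sign turned in 5 of 15 other settings, to −0.06 without shCtrl 3.

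Because PDGFRA and PDGFRB are read from the same libraries, their ratio does not depend on the size factors. For each PDGFRB read there were 1.30, 1.34 and 1.34 PDGFRA reads across shCtrl, against 1.97, 1.71 and 2.02 across shDNAJC2. Here the 3 controls, shCtrl 3 included, lay close together (SD of the log2 ratio 0.0208), and the knockdown libraries all lay above them. The mean log2 ratio was 0.41 in the controls and 0.92 ± 0.13 (SD, n = 3) in the knockdown, a difference of 0.52. The receptors differ in GC content (42.9% for PDGFRA and 57.6% for PDGFRB). With the GC trend removed the ratios were 1.37, 1.42 and 1.53 in the controls and 1.62, 1.66 and 2.003 in the knockdown, so the groups still did not overlap and the difference was 0.28, against 0.52 before. PDGFRA is ENSG00000134853, chromosome 4, 54229097 to 54298247, plus strand, and PDGFRB is ENSG00000113721, chromosome 5, 150113837 to 150155872, minus strand. The ratio was chosen after its values had been seen and is given as a description, with no test.

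Of the 4 PDGF ligand genes, PDGFC had the highest level, at 34.9 to 40.7 CPM across shCtrl, against 36.4 to 46.4 CPM across shDNAJC2, and its groups overlapped. PDGFA, PDGFB and PDGFD lay at 1.37 to 7.52 CPM in every library. None of the 4 had an unadjusted p under 0.05. Without shCtrl 3, PDGFA was higher by 1.10 (adjusted p 0.0171 in edgeR), from 1.39 and 1.37 CPM to 2.92, 3.83 and 2.27 CPM, but shCtrl 3 itself was at 3.89 CPM.

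Levels of different genes were compared as CPM per kilobase of the longest annotated transcript, which need not be the one expressed. In the controls TPM2 was the most abundant member by this measure, at a mean of 469 CPM per kilobase, followed by TPM1 (67.9), CALD1 (63.3), MYL9 (62.8) and TAGLN (43.3). The control libraries of TPM1, CALD1 and MYL9 overlapped, so their order is not resolved. PDGFRA (23.5), PDGFRB (20.4) and CSPG4 (17.3) came next, and ACTA2 (8.09) and CNN1 (5.36) were lowest. In the knockdown the order kept TPM2 (339) first and CNN1 (2.51) last, and CALD1 (62.0) stood above TPM1 (49.6) and MYL9 (31.7). ACTA2 was thus a small part of the actin transcripts: by this measure it made up 0.138 to 0.256% of 6 actin genes in each control library and 0.140 to 0.151% in each knockdown library, with overlapping groups, and the cytoplasmic actins ACTB and ACTG1 made up nearly all of the rest. The beta and gamma actin genes have many processed pseudogenes, so their counts are uncertain.

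Shares within a family likewise do not depend on size factors, and the families were chosen after the values had been seen. TPM2 made up 44.7, 42.7 and 41.8% of the 4 tropomyosin genes in the controls and 35.3, 38.2 and 38.1% in the knockdown, per length. TPM4, the main nonmuscle tropomyosin here, held 37.7 ± 1.13% in the controls and 41.1 ± 1.23% in the knockdown (SD, n = 3 each). CNN1 made up 3.02, 2.73 and 2.44% of the calponins in the controls and 1.70, 2.10 and 1.81% in the knockdown. TAGLN made up 10.1 ± 1.94% of the transgelins in the controls and 6.93 ± 0.872% in the knockdown, the rest being almost entirely TAGLN2. MYL9 made up 14.5, 14.7 and 6.8449% of the regulatory light chain genes in the controls and 5.19, 5.71 and 6.8447% in the knockdown, so that shCtrl 3 and shDNAJC2 3 were almost equal. For TPM2, CNN1, TAGLN, PDGFRB and, by that margin, MYL9 the share was lower in every knockdown library than in every control. The PDGFRB share restates the ratio above, whose difference was 0.28 with the GC trend removed, against 0.52. The other shares were not recomputed with that trend removed. These shares are given as a description, with no test. For TPM1 and ACTA2 the groups overlapped.

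**Figure D3:**
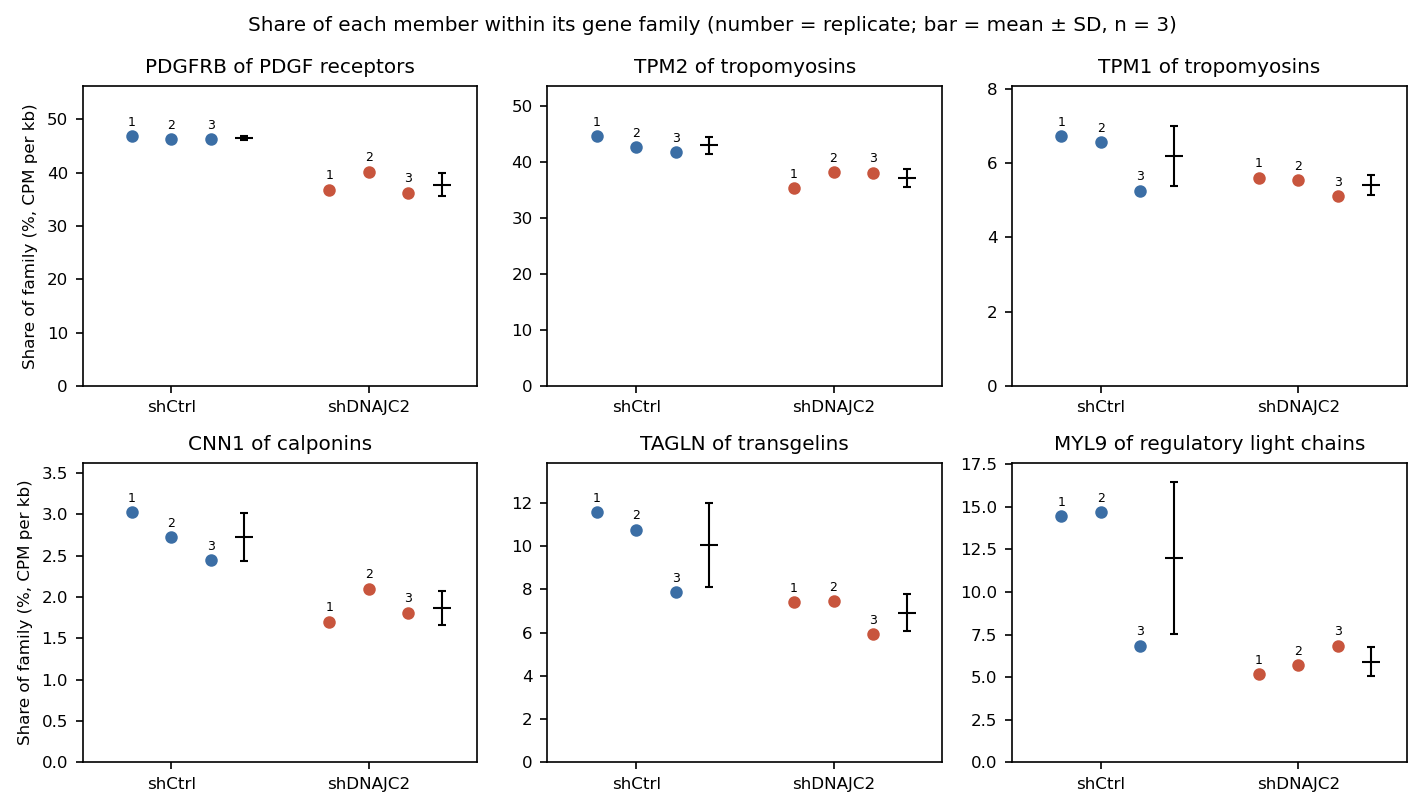
Share of 6 members within their gene families in percent of CPM per kilobase, on linear axes from 0, with 1 point per library (shCtrl in blue, shDNAJC2 in red) and the mean ± SD of 3 libraries as a bar. The 3 controls of PDGFRB lie together at 46.2 to 46.9% above the knockdown libraries at 36.2 to 40.2%, whereas shCtrl 3 of MYL9 lies at the level of shDNAJC2 3.

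Of the other smooth muscle contractile genes 20 of 24 were tested, and 8 were lower and 0 higher at an unadjusted p under 0.05, with 5 lower without overlap and a median log2 fold change of −0.47. Over all genes 7.33% were lower and 4% higher by that p, and 8.43% were lower without overlap, with a median of −0.02. None passed after adjustment in edgeR. Without shCtrl 3, 10 fell and 2 rose (17% and 17.8% of all genes), with a median of −0.67. SMTN, with the smallest p, was at 132, 125 and 98.5 CPM across shCtrl, against 57.9, 76.4 and 75.6 CPM across shDNAJC2. ACTG2 was at 36.1, 39.3 and 23.6 CPM across shCtrl, against 22.1, 22.8 and 17.1 CPM across shDNAJC2, without overlap. MYLK and PDLIM7, a LIM protein of the actin cytoskeleton, overlapped between groups, and in both shCtrl 3 (279 and 132 CPM) lay below shDNAJC2 3 (326 and 138 CPM). CSRP1, a cysteine-rich LIM protein of smooth muscle and among the most abundant genes of the list, was at 209.9, 217 and 313 CPM across shCtrl, against 279, 294 and 234 CPM across shDNAJC2. Late markers, named after their values were seen, were scarce: MYH11, the smooth muscle myosin heavy chain gene, was at 4.37 to 6.57 CPM in every library, DES, the muscle intermediate filament gene, was at 0.239 to 0.861 CPM and KCNMB1 had no count in any library.

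**Figure D4:**
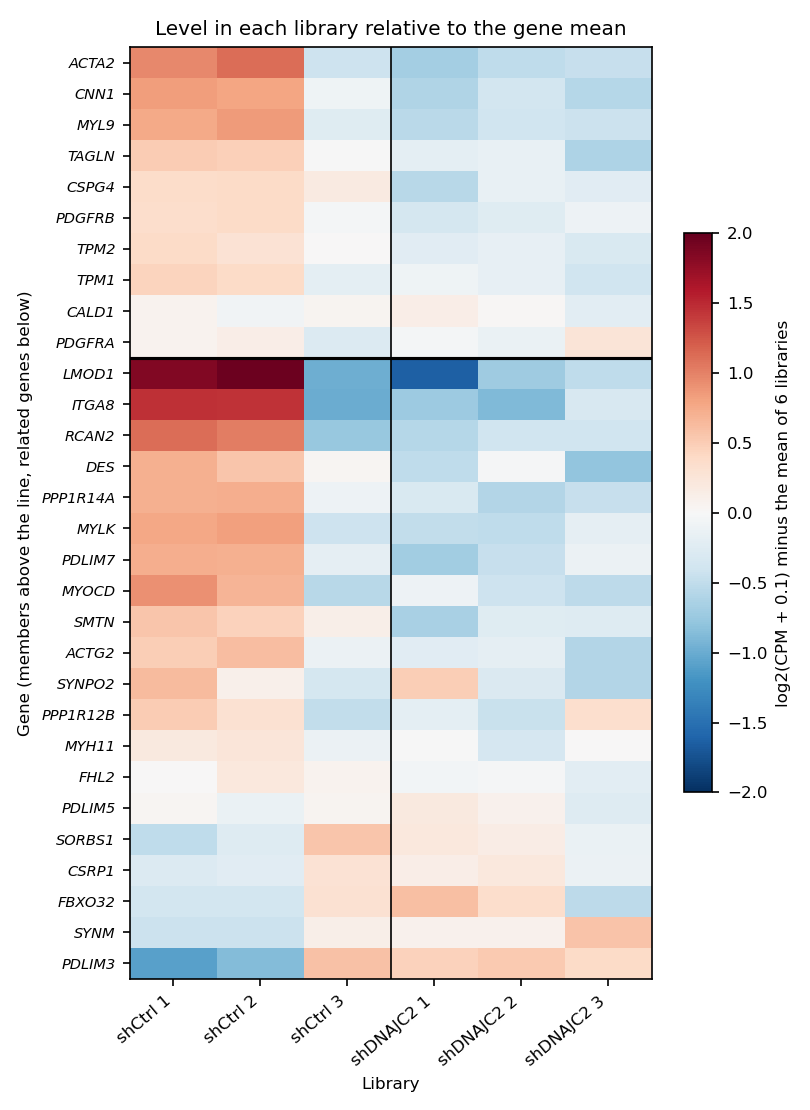
Log2(CPM + 0.1) of the 10 members (above the line) and 20 other contractile genes (below it) in each library minus the mean of the 6 libraries, red for higher and blue for lower, with genes ordered by fold change within each block. shCtrl 1 and 2 are the reddest columns for most genes with a negative fold change, shCtrl 3 resembles the knockdown columns for LMOD1, ITGA8 and MYLK, and CSRP1, SYNM and PDLIM3 run the other way.

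Widely expressed paralogs and actomyosin genes, all 25 of them tested, gave 5 lower and 0 higher at an unadjusted p under 0.05 and 9 lower without overlap (7.33%, 4% and 8.43% of all genes), with a median of −0.13. Without shCtrl 3, 7 fell and 1 rose (17% and 17.8% of all genes). Among them were ACTB (5143, 5549 and 3363 CPM across shCtrl, against 2780, 3003 and 3183 CPM across shDNAJC2) and ACTG1. CNN2, the broadly expressed calponin, was at 254, 278 and 127 CPM across shCtrl, against 101, 104 and 124 CPM across shDNAJC2. FLNA, the actin crosslinker filamin A, was at 2253, 2342 and 2439 CPM across shCtrl, against 1589, 1848 and 1762 CPM across shDNAJC2, and here shCtrl 3 was the highest library.

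Serum response factor and its myocardin-family coactivators were measured next, in a list that also held regulators that do not bind CArG boxes, such as the TEAD factors and their coactivators YAP1 and WWTR1. SRF itself lay at 76.9, 87.5 and 125 CPM across shCtrl, against 80.5, 97.4 and 86.5 CPM across shDNAJC2 (named after its values were seen). MRTFA, its actin-sensing coactivator, was lower without overlap, at 47.8, 49.9 and 41.0 CPM across shCtrl, against 28.1, 32.3 and 33.9 CPM across shDNAJC2, and its log2 fold change was −0.56 (standard error 0.13, adjusted p 0.429 in edgeR). MRTFA ranked 35 by p and had a GC content of 61.3%. MYOCD, the smooth muscle coactivator myocardin, was at 6.72, 5.73 and 2.39 CPM across shCtrl, against 3.29, 2.63 and 2.43 CPM across shDNAJC2. Its groups overlapped, its log2 fold change was −0.83, and without shCtrl 3 it fell by 1.16 (adjusted p 0.0035 in edgeR). MRTFB, the related coactivator, had a log2 fold change of −0.36, with overlap, and fell by 0.58 without shCtrl 3 (adjusted p 0.0194 in edgeR). In the whole list of 14 genes 2 were lower at an unadjusted p under 0.05, MRTFA and TEAD2 (7.33% of all genes), and the median log2 fold change was 0.01, which describes this mixed list and not the myocardin family. Without shCtrl 3, 4 of the 14 rose and 4 fell (17.8% and 17% of all genes). Of 13 targets of YAP and TEAD, another pair of factors that respond to actin, NT5E was higher at an unadjusted p under 0.05 and none was lower (4% and 7.33% of all genes). The median over these targets was 0.12. Without shCtrl 3, 7 of these 13 rose and 2 fell (17.8% and 17% of all genes), with a median of 0.47. Of 17 genes of TGF-beta signalling, which induces contractile genes in many cells, 3 were lower and 1 higher at an unadjusted p under 0.05 (7.33% and 4% of all genes). Of these 17, 5 fell and 2 rose without shCtrl 3 (17% and 17.8% of all genes). TGFB1 was at 199.7, 206 and 203 CPM across shCtrl, against 148, 168 and 165 CPM across shDNAJC2, and the receptor gene TGFBR1 was at 38.0, 41.5 and 40.9 CPM across shCtrl, against 58.2, 49.0 and 50.8 CPM across shDNAJC2.

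Other pericyte markers gave values in both directions. Of 22 listed genes 16 were tested, 3 were lower and 1 higher at an unadjusted p under 0.05 (7.33% and 4% of all genes), and the median was −0.07. Without shCtrl 3, 5 fell and 3 rose (17% and 17.8% of all genes). MCAM (CD146), an adhesion molecule of pericytes and endothelium, was at 236, 246 and 125 CPM across shCtrl, against 102, 109 and 117 CPM across shDNAJC2, and FOXF2, a mesenchymal transcription factor of pericytes, was at 37.7, 39.5 and 23.4 CPM against 17.2, 21.1 and 20.9 CPM, both without overlap. CD248 (endosialin) was at 89.1, 90.8 and 46.4 CPM across shCtrl, against 31.7, 37.9 and 47.5 CPM across shDNAJC2, with overlap. RGS5, often used to define pericytes, was at 2.27 to 3.60 CPM throughout, and COX4I2, ZIC1 and GJA4 had at most 3 counts in any library. NT5E, the most abundant gene of the list, was at 589, 629 and 976 CPM across shCtrl, against 1151, 1019 and 983 CPM across shDNAJC2. It was the gene higher by that p, and its groups did not overlap. The summed level of the list, of which NT5E was the largest part, was 1488 to 1726 CPM across shCtrl, against 1651 to 1684 CPM across shDNAJC2.

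Markers of other cell types were measured the same way. Among fibroblast markers, of 11 tested, 5 were lower and 0 higher at an unadjusted p under 0.05 (median −0.34), against 7.33% and 4% of all genes. Without shCtrl 3, 6 of these markers fell and 0 rose (17% and 17.8% of all genes). Their summed level was 1446 to 4599 CPM across shCtrl, against 1291 to 1860 CPM across shDNAJC2, with COL1A1 the most abundant (2796, 2785 and 695 CPM across shCtrl, against 572, 623 and 1066 CPM across shDNAJC2). DPT had no count, and 1 of the 11 markers tested was lower without overlap, against 8.43% of all genes. Endothelial markers summed to 60.8 to 74.7 CPM across shCtrl, against 58.7 to 59.8 CPM across shDNAJC2, with CDH5 at no count in any library. Most of this sum was TEK, at 65.0, 71.2 and 52.6 CPM across shCtrl, against 53.9, 50.8 and 49.9 CPM across shDNAJC2, with overlap. Of the 6 tested, 2 had a negative log2 fold change, the median was 0.40, and none had an unadjusted p under 0.05. Without shCtrl 3, 2 rose and 1 fell (17.8% and 17% of all genes). Of 10 blood and immune markers 3 were tested. The sum over all 10 was 87.7 to 99.3 CPM across shCtrl, against 74.8 to 84.5 CPM across shDNAJC2. Nearly all of it was CD68, and PTPRC had at most 3 counts. Of the 3 tested, 1 was lower and 0 higher at an unadjusted p under 0.05 in edgeR, and 1 was lower without overlap (7.33%, 4% and 8.43% of all genes). It was CORO1A, at 7.17, 8.25 and 4.48 CPM across shCtrl, against 2.82, 2.87 and 2.75 CPM across shDNAJC2, with a log2 fold change of −1.24 and rank 17 by p. Striated muscle markers summed to 4.77 to 8.29 CPM across shCtrl, against 3.86 to 4.85 CPM across shDNAJC2, with MYH6, MYH7, MYOG and MYOD1 at no count. Of the 3 tested, 1 was lower and 0 higher at an unadjusted p under 0.05 in edgeR (7.33% and 4% of all genes). It was ACTC1, at 4.26, 4.51 and 0.544 CPM across shCtrl, against 0.157, 0.299 and 0.597 CPM across shDNAJC2. Its groups overlapped, and its log2 fold change was −3.07, from raw counts of 3 to 118 per library. In bulk RNA fewer cells of a type and less RNA per cell cannot be told apart, and the part of the fibroblast genes in the members' differences was not tested.

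Leaving out shCtrl 3, 8 of the 10 members fell in edgeR (adjusted p 9.7e-05 to 0.00524), against 17% of all 14201 genes tested, with 4655 genes (32.8%) lower without overlap. ACTA2 fell by 1.60, CNN1 by 1.34 and MYL9 by 1.26, and TAGLN, CSPG4, TPM1, PDGFRB and TPM2 fell by 0.57 to 0.79. CALD1 and PDGFRA did not pass (adjusted p 0.949 and 0.732). In each of the 5 fits that left out another library, no member passed.

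The genes most like each member over the 6 libraries, by Pearson's r of log2 CPM among 10962 genes of at least 5 CPM, are given as a description, since 6 libraries that differ mainly along a single component make high values common. The nearest genes of 9 members were ARHGEF39 for ACTA2 (r = 0.999), SSBP3 for MYL9 (0.999), ENAH for TPM1 (0.996), TRNP1 for TPM2 (0.998), BCAS4 for TAGLN (0.994), THOC6 for CSPG4 (0.998), DDR1 for PDGFRB (0.999), PTGR3 for PDGFRA (0.995) and PDLIM5 for CALD1 (0.968). Genes with an r above 0.95 numbered 581 for PDGFRB, 539 for ACTA2 and 400 for MYL9, but 48 for PDGFRA and 3 for CALD1.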

How the data were processed

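The labels' protocols describe paired-end Illumina sequencing of mRNA-enriched RNA from ACHN cells, here 6 libraries. The deposited values are raw counts per gene that the authors had not normalized, judged from the values themselves, which are whole and sum to unequal library totals. The submitters' processing notes name GRCh38 (hg38) as the build, and the aligner, counter and strand setting are not given in the sources used here. Genes were compared with edgeR 4.0.16 (R 4.3.3): quasi-likelihood F test, two-sided, TMM, filterByExpr, group as the only term, Benjamini-Hochberg adjustment, threshold 0.05. Positions, lengths and GC content (longest transcript) came from GENCODE 29, and the GC trend was a loess fit per library entered as an offset. Scripts were tested on simulated counts. shCtrl 1 and 2, the closest pair, differed beyond sampling noise (chi-square per gene 3.62), so all 6 libraries counted separately.

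The members and gene lists were chosen with earlier results of these data known. The text names all members, up to 4 genes of smallest p and up to 3 of highest level from each list, the 2 genes most alike each member (here the first of them, with that of CNN1 not reported here) and DNAJC2. Any other gene named was chosen after its values were seen, as were LMOD1, ITGA8, SYNM, PDLIM3, KRT8, PAX8, EPCAM and the markers given as absent.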

Additional observations from a re-analysis of the deposited data

How the results depend on the processing

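Counts over the 10 members and over all genes were recomputed with RLE or library-size scaling, a different filter or none, DESeq2 (1.42.0), limma-voom (3.58.1), a replicate block, removal of the GC trend, an adjusted p under 0.01 for all genes, and without each library in turn. DESeq2 called 4 genes higher and 14 lower, against 0 and 0 in edgeR, and 0 of the 10 members. It gave ACTA2 and CNN1 no adjusted p. Leaving out 1 library gave 0 to 2532 genes called higher and 0 to 2413 lower, and 0 to 8 members called lower, the high values without shCtrl 3 and 0 without any other. Members lower at an unadjusted p under 0.05 numbered 4 to 8 when 1 library was left out (4 without shCtrl 2), against 7 over all. For that p the share of all genes is given only for the main fit over all 6 libraries (7.33% lower), here and below. Members lower without overlap numbered 7 to 8 on leaving out a library, where the share of all genes ranged from 8.79 to 32.8%. That share was 32.8% without shCtrl 3, the fit with 8 members, and 19.5% without shDNAJC2 3. They numbered 5 with library size only (7.18% of all genes) and 4 with the GC trend removed (5.94% of all genes). With library size only ACTA2 and PDGFRB overlapped, at log2 fold changes of −1.34 and −0.53, larger in size than with TMM (−1.26 and −0.47). With the GC trend removed ACTA2 was at −1.25, and 8 members had an unadjusted p under 0.05, again without a share of all genes. The log2 ratio of PDGFRA to PDGFRB differed by 0.28 with the GC trend removed, against 0.52. It was 0.47 to 0.59 when a library was left out. The median log2 fold change of all genes moved by less than 0.1 under each scaling.

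PDGFRA turned sign with library size only (−0.0039), with the GC trend removed (−0.048), with the replicate block and the GC trend removed together (−0.055), without shCtrl 3 (−0.061) and without shDNAJC2 3 (−0.058). CALD1 turned without shCtrl 1 (0.0091) and without shDNAJC2 3 (0.079). The causes were not tested. When 1 library was left out, CALD1 ranged from −0.107 to 0.079 and PDGFRA from −0.061 to 0.138. The other 8 members kept their sign under all 15 settings. Same-numbered libraries did not deviate together (correlations of deviations −0.38, −0.52 and −0.66). In both groups replicate 3 lay apart on the first principal component (shCtrl 3 at 36.1, shDNAJC2 3 at −1.40). Such a library weighs on all 3 values, so they cannot decide whether the numbers pair the libraries. With the replicate block 0 genes and 0 members were called, and 7 members had an unadjusted p under 0.05, or 5 with the GC trend also removed, both without a share of all genes.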
